A study of Mus musculus with 12 samples.

Results

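The IκB family genes are followed here in mouse peritoneal macrophages that carry or lack one of them. The 6 genes are Nfkbiz, Bcl3 and Nfkbid, which encode the atypical nuclear members IκBζ, Bcl-3 and IκBNS, and Nfkbia, Nfkbib and Nfkbie, which encode the classical cytoplasmic inhibitors IκBα, IκBβ and IκBε. They were taken by symbol from 19938 tested genes. Each of the 6 had 1 probe set with that symbol alone, so no second probe set could serve as a check. Cells came from female C57Bl/6 mice (wild type) or Nfkbiz-/- mice (knockout). They were either untreated or given lipopolysaccharide (LPS), the bacterial cell-wall component sensed by TLR4, at 1 µg/ml for 4 h. The sample titles give no time for untreated cells. Each of the 4 groups had 3 arrays. All cells were flushed from the peritoneum, with no sort recorded, and cultured briefly before treatment. The sources used here do not give how the deletion was made, whether mice were pooled or whether replicates came from separate mice. The p-values therefore reflect the spread among these arrays alone, and that spread may be technical.

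Classical IκB proteins hold NF-κB dimers in the cytoplasm through their ankyrin repeats. TLR4 signalling activates the IκB kinases, which phosphorylate these inhibitors and mark them for degradation, and the freed NF-κB then drives new transcription of Nfkbia as a negative feedback. Atypical members act mainly in the nucleus, where they bind NF-κB on DNA and raise or restrain chosen target genes. IκBζ is an LPS-induced co-activator of secondary response genes, Bcl-3 is chiefly known for stabilising p50 homodimers on DNA, and IκBNS can restrain inflammatory genes.

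Because the freed NF-κB acts on family members themselves, promoter sequences that contain the NF-κB consensus (searched on both strands) are shown first. RefSeq promoters of build GRCm38.p6, reaching from 250 bases before to 50 bases after a start, were at hand for 5 of the 6 genes, all but Nfkbiz. Of 27025 genes with such a promoter 5.14% had a match, as had 4.51% of 32851 promoters. Among the family, 4 of 5 genes had one, Bcl3, Nfkbid, Nfkbia and Nfkbie, and Nfkbib had none in this window. The lines below give the gene strand with the matched bases in capitals, at positions counted from the start as 0.
Nfkbia, -29 to -20, chr12:55492657-55492686: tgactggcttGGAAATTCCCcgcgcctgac
Nfkbie, -106 to -97, chr17:45555584-45555613: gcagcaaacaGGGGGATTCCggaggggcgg
Nfkbid, -226 to -217, chr7:30422170-30422199: gccccgccctGGGACTTCCCagagcaccac
Nfkbid, -181 to -172, chr7:30422215-30422244: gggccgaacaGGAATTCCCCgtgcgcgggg
Bcl3, 2 to 11, chr7:19822734-19822763: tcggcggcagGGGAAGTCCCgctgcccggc
Both Nfkbid matches lay in 1 of its 3 listed promoters, and the match in Bcl3 lay just past its start. A match describes these letters only, and binding was not measured here.

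Values are deposited intensities, given as mean ± SD with n = 3. Differences are on the log2 scale, with a standard error (SE) or 95% interval from a limma fit over all 12 arrays, and a gene was called at a Benjamini-Hochberg adjusted p under 0.05. Array medians ran from 110.4 to 118.7 and the lowest value of the 6 genes was 266.9. Correlations within a group were 0.982 to 0.996. Among LPS-treated arrays, the lowest mean correlation with the own group was 0.984 in the knockout (replicate 2) and 0.989 in wild type (replicate 3). Knockout replicate 3, at 0.988, was also below that wild-type array. Macrophage markers (8 of 8 measured, such as Adgre1 and Csf1r) had summed intensities of 59520 to 61070 in untreated wild type, 51056 to 53128 with LPS, 58947 to 60479 in untreated knockout and 52605 to 55282 with LPS. Between LPS-treated genotypes, where Nfkbid and Nfkbie differed, Mertk was called higher in the knockout (1.29) and Adgre1 lower (-0.35). Large peritoneal macrophage markers (4 of 5 measured) summed to 9683 to 10292 on LPS-treated knockout arrays and 7195 to 9394 on wild-type ones. Of these markers, 0 of 4 were called by limma (3 at an unadjusted p under 0.05, against 22% of all genes). They did not move together, since mean intensities in knockout and wild type were 5840 and 4650 for Alox15 and 1490 and 361 for Timd4, but 1180 and 1970 for Gata6. Dendritic cell markers (4 of 4) summed to 592 to 1580 in untreated wild type and 428 to 473 in untreated knockout. Here 0 of 4 were called by limma (2 at an unadjusted p under 0.05, against 8.68% of all genes). Cd209a made up most of that gap (559 ± 581 and 142 ± 24.4, SD, n = 3). Flt3 was also lower in the knockout (136 ± 27.1 and 98.6 ± 19.4), while Xcr1 (62.9 and 60.4) and Zbtb46 (167 and 149) differed little. T cell markers (5 of 6) were 524 to 565 with LPS in knockout and 470 to 483 in wild type, and neutrophil markers (6 of 6) 495 to 512 and 470 to 492. Single genes had means of 54 to 192 and 31.3 to 135 in these groups, most of them below the array medians. Between these groups 1 of 5 T cell markers was called higher in the knockout, Cd3e (0.29, limma adjusted p = 0.0337), where 3.28% of all genes were. Of the neutrophil markers 0 of 6 were called by limma (1 at an unadjusted p under 0.05, against 22% of all genes). B cell markers (5 of 6) ran from 661 to 1695 over all arrays. Mast cell markers (6 of 6) summed to 706 to 906 in untreated wild type and 869 to 2694 in untreated knockout. With LPS the same sums were 607 to 923 in wild type and 596 to 2320 in the knockout. By limma 0 of 6 were called between genotypes, untreated or with LPS. At an unadjusted p under 0.05 there were 0 in each (8.68% and 22% of all genes). The part of these cells in the results was not tested. In such bulk samples, fewer cells of a type and less RNA per cell cannot be told apart.

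**Figure D1:**
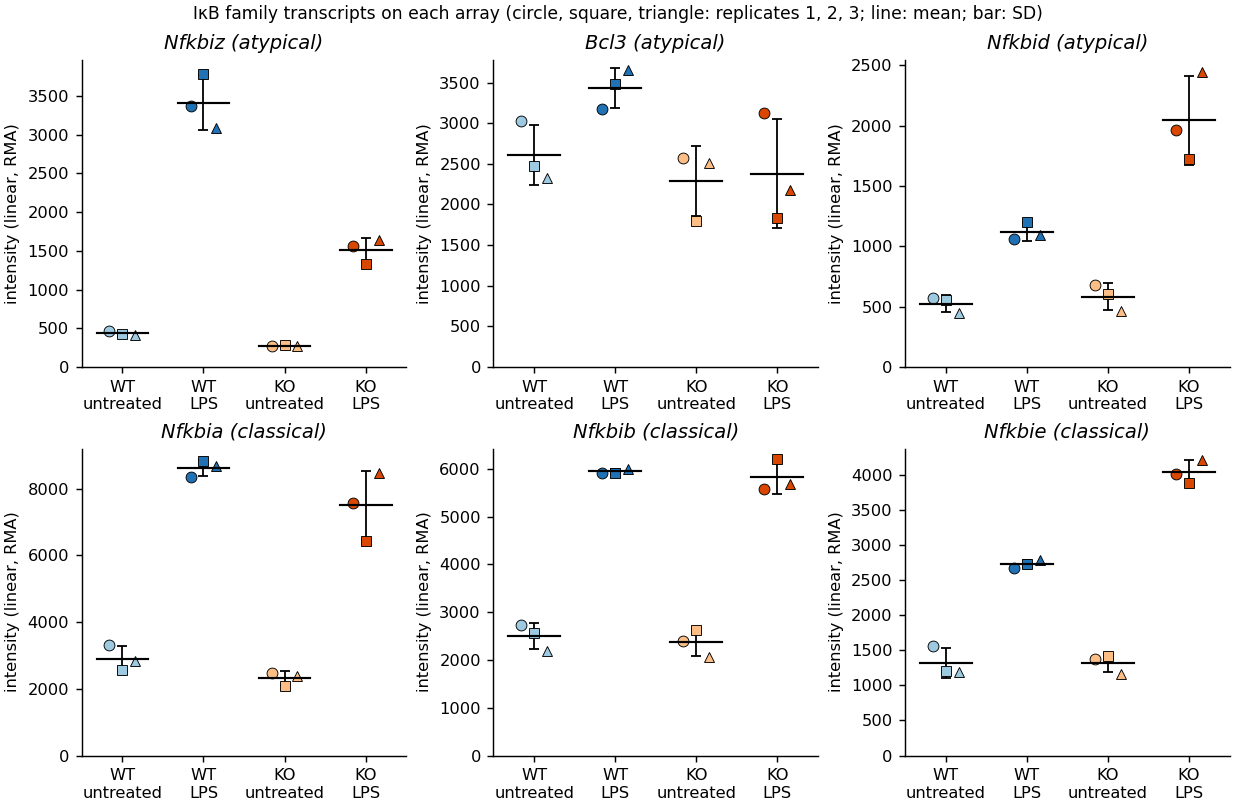
Deposited intensity (linear scale, from 0) of the 6 genes on each of the 12 arrays, by genotype and treatment, with the mean as a line and the SD as a bar (n = 3). Nfkbiz stood higher with LPS in both genotypes, Bcl3 moved little, and Nfkbid and Nfkbie were highest on the LPS-treated knockout arrays (1724 to 2443 and 3888 to 4215).

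The LPS response of wild-type cells gives the change in signal of each family member at 4 h, read from 1 probe set per gene. Nfkbiz rose most, 7.86-fold, and all classical members rose 2.08- to 2.98-fold, while Bcl3 did not pass the test. In all, 5 of 6 genes were called higher and 0 lower, where 9.53% of all tested genes were called higher and 18.5% lower. The share called higher depends on scaling: with arrays centred at the 75th percentile it was 37.2%, and the median of all genes moved from 0.04 to 0.19. Groups did not overlap for all 6 genes, all higher with LPS, as for 23.2% of all genes. The median of the 6 differences was 1.18. By class, 2 of 3 atypical and 3 of 3 classical genes rose.

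Nfkbiz, the gene of the nuclear co-activator IκBζ, had intensities of 462.6, 430.7 and 406.3 untreated and 3371, 3786 and 3079 with LPS in wild type. No untreated array came near a treated one. Its mean went from 433.2 ± 28.2 to 3412 ± 355 in wild type (log2 difference 2.97, 95% interval 2.76 to 3.19, limma adjusted p = 7.19e-09). It ranked 49 among 19938 genes by rise, and its interval lay above those of the other 5 genes.

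Nfkbid, the gene of the nuclear regulator IκBNS, read 569.8, 556.4 and 443.1 untreated and 1061, 1199 and 1097 with LPS in wild type. The groups stood well apart, and the log2 difference was 1.1 (SE 0.16, limma adjusted p = 2.91e-04). It ranked 441 by rise.

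Bcl3 read 3023, 2469 and 2329 untreated and 3170, 3481 and 3650 with LPS in wild type. Every LPS-treated array read higher, but by little, since the gap between replicate 1 of both groups was small. The log2 difference of 0.40 (interval -0.01 to 0.82) was not called (limma adjusted p = 0.145). Of the alternatives, 4 called it, such as centring on the 75th percentile (0.56, adjusted p = 0.0257) and a fit on the 6 arrays compared (0.40, adjusted p = 0.0252).

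Nfkbia, which encodes the fast feedback inhibitor IκBα, read 3308, 2564 and 2836 untreated and 8347, 8821 and 8683 with LPS in wild type. No arrays of these groups overlapped, and the LPS-treated ones lay close together. Its log2 difference of 1.58 (SE 0.12, limma adjusted p = 2.34e-06) was the largest of the classical genes.

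Nfkbib, which encodes IκBβ, read 2733, 2557 and 2196 untreated and 5919, 5918 and 5996 with LPS in wild type. Its treated replicates were nearly alike, and it rose by 1.26 (SE 0.10, limma adjusted p = 4.41e-06).

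Nfkbie, which encodes IκBε, read 1562, 1204 and 1191 untreated and 2670, 2725 and 2786 with LPS in wild type. Its rise of 1.06 (SE 0.11, limma adjusted p = 2.26e-05) was the smallest of the 5 called, with an interval (0.82 to 1.3) that overlapped those of Nfkbid (0.75 to 1.45) and Nfkbib (1.04 to 1.48).

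**Figure D2:**
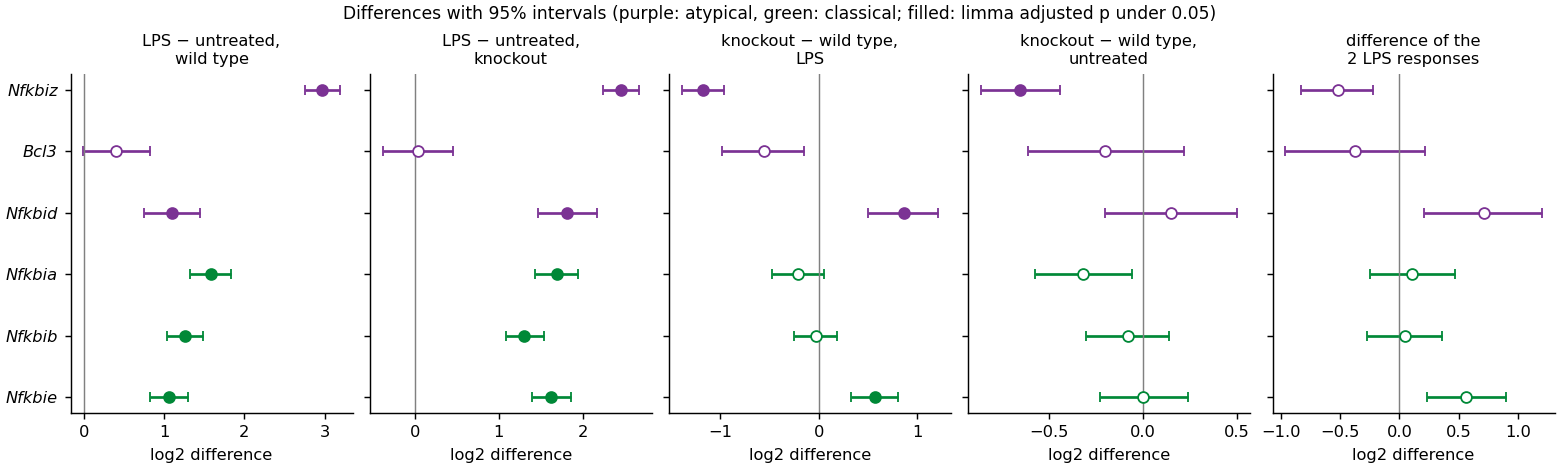
Log2 differences of the 6 genes in 5 comparisons, as points with 95% intervals of the limma fit (each panel has its own x axis). Filled points passed an adjusted p of 0.05: 5 genes in each LPS response, 3 with LPS between genotypes, Nfkbiz alone untreated and none for the difference of the responses.

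In the knockout, LPS again raised 5 of the 6 genes, all but Bcl3, where 21.9% of all tested genes were called higher (55.3% after centring on the 75th percentile, with a median of all genes of 0.28 against 0.07) and 23.8% lower. The same 5 had groups that did not overlap, as had 28.3% of all genes in that direction. The median of the 6 was 1.65. The targeted Nfkbiz gave a signal of 266.9, 285.6 and 274.4 untreated and 1568, 1335 and 1634 with LPS, each below every wild-type array of the same treatment. It rose 5.47-fold with LPS, from 275.6 ± 9.38 to 1512 ± 157 (log2 difference 2.45, interval 2.24 to 2.66, limma adjusted p = 2.41e-08). No source used here says where its probe set lies relative to the deletion, so this signal need not be intact transcript and is no check of the knockout.

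Nfkbid read 680.3, 607.5 and 460.9 untreated and 1962, 1724 and 2443 with LPS in the knockout. All treated arrays were far above the untreated ones, with replicate 3 lowest before and highest after treatment. The rise was 1.81 (SE 0.16, limma adjusted p = 5.17e-06), or 3.51-fold.

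Nfkbie read 1368, 1416 and 1165 untreated and 4012, 3888 and 4215 with LPS in the knockout. Treated replicates lay close together, and the rise was 1.62 (SE 0.11, limma adjusted p = 7.88e-07), or 3.08-fold.

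Nfkbia read 2478, 2089 and 2393 untreated and 7572, 6439 and 8483 with LPS in the knockout. Replicate 2 was lowest in both groups, and the rise was 1.69 (SE 0.12, limma adjusted p = 1.03e-06). Nfkbib read 2401, 2631 and 2067 untreated and 5571, 6213 and 5675 with LPS. Here replicate 2 was highest in both groups, and the rise was 1.3 (SE 0.10, limma adjusted p = 2.15e-06).

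Bcl3 read 2572, 1793 and 2511 untreated and 3130, 1830 and 2179 with LPS in the knockout. The groups overlapped widely, and treated replicate 1 stood well above the other two. The log2 difference was 0.04 (interval -0.38 to 0.45, limma adjusted p = 0.892). It was -0.18 without LPS replicate 1, -0.13 without untreated replicate 2 and -0.01 after centring on the median, so no direction can be given.

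Setting the genotypes against each other after LPS asks whether family members stand at other levels without IκBζ. Nfkbiz was lower, and Nfkbid and Nfkbie were higher. In all, 1 gene was called lower (background 4.87%) and 2 higher (background 3.28%), and 3 were not called. The 1 called lower was Nfkbiz, the gene targeted by design, so that call says nothing about the rest of the family. By class, 1 atypical gene was higher and 1, the targeted Nfkbiz, lower, and 1 classical gene was higher. Of the atypical genes that were not targeted, Nfkbid was called and Bcl3 was not. The median of the 6 was -0.12 against -0.01 over all genes.

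Nfkbid was 1.81-fold higher in the knockout, at 2043 ± 366 against 1119 ± 71.4 (log2 difference 0.86, SE 0.16, limma adjusted p = 0.00848). Its lowest knockout array, at 1724, was above its highest wild-type array, at 1199. Leaving out each array in turn gave 0.72 to 0.97, with adjusted p of at most 0.0396.

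Nfkbie was 1.48-fold higher, at 4038 ± 165 against 2727 ± 58.1 (log2 difference 0.57, SE 0.11, limma adjusted p = 0.00905). Its groups were separated by more than their spread, 3888 being the lowest knockout and 2786 the highest wild-type value. Without each array in turn it was 0.53 to 0.59, with adjusted p of at most 0.0414.

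Nfkbiz had a ratio of 0.443 of knockout to wild type (95% interval 0.382 to 0.514, log2 difference -1.17, limma adjusted p = 7.23e-05). Bcl3 was 2380 ± 673 against 3434 ± 244. Its highest knockout array (3130) fell just below its lowest wild-type array (3170), and the log2 difference of -0.56 (SE 0.19) was not called (limma adjusted p = 0.0986). Without knockout LPS replicate 1, the high array, it was -0.78 and was called (limma adjusted p = 0.0202). With array weights it was -0.35.

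Nfkbia and Nfkbib overlapped between genotypes with LPS. Nfkbia stood at 7498 ± 1020 in knockout cells against 8617 ± 244 in wild type (-0.21 on the log2 scale, interval -0.47 to 0.05, limma adjusted p = 0.344), and Nfkbib 5819 ± 344 and 5944 ± 44.6 (-0.03, interval -0.25 to 0.19, limma adjusted p = 0.915). For Nfkbib this interval corresponds to a ratio of 0.838 to 1.14. Groups that did not overlap were found for 2 genes in each direction, against 10.3% of all genes higher and 14.2% lower. Those lower were the targeted Nfkbiz and Bcl3.

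**Figure D3:**
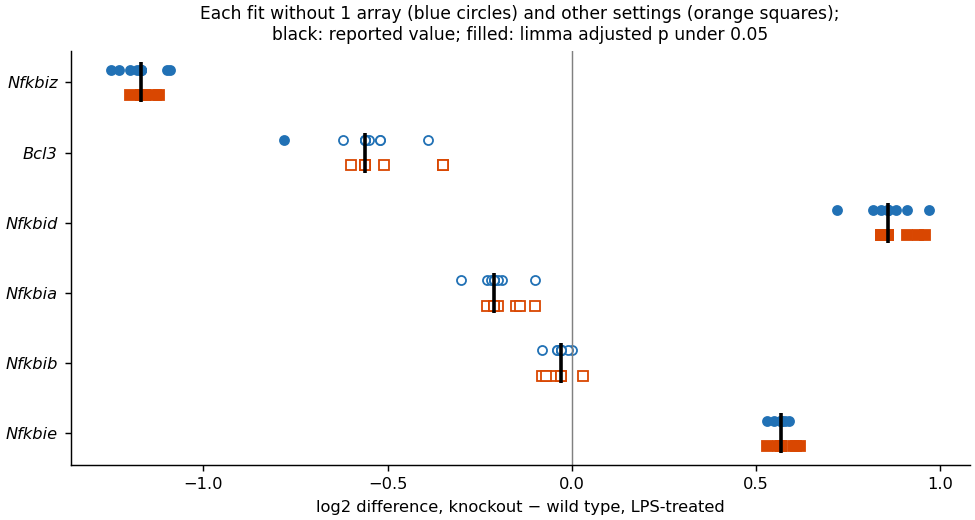
Log2 difference between LPS-treated knockout and wild type for the 6 genes, in fits that left out 1 array (circles) and under other settings (squares), with the reported value as a black line. Nfkbiz, Nfkbid and Nfkbie were called under every setting drawn, and Bcl3 was called without knockout LPS replicate 1 alone.

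Between untreated cells, the targeted Nfkbiz was the single gene of the 6 called. It was lower in the knockout, with a ratio of 0.637 (log2 difference -0.65, limma adjusted p = 0.0401), where 0.0401% of all genes were called lower. The call was lost in 8 of 12 fits that left out 1 array (-0.70 to -0.60 over all 12). They were those without wild-type LPS replicate 1, knockout LPS replicate 1 or any of the 6 untreated arrays. Nfkbia was also lower on every knockout array, at 2320 ± 204 against 2903 ± 377, but was not called (-0.32, interval -0.57 to -0.06, limma adjusted p = 0.474), and 11.5% of all genes had such groups. Nfkbid (0.15, interval -0.20 to 0.50), Bcl3 (-0.20, interval -0.61 to 0.22), Nfkbib (-0.08, interval -0.30 to 0.14) and Nfkbie (0, interval -0.23 to 0.24) overlapped between genotypes. The sign turned for Nfkbie without 4 of the single arrays, and for Nfkbib without knockout untreated replicate 3.

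Whether the LPS responses themselves differed was tested by the interaction. With limma, 0 of 6 genes passed, where 0.747% of all genes were called, and 3 of 6 had an unadjusted p under 0.05 (13.1% of all genes). Nfkbid responded more in the knockout by 0.71 (interval 0.21 to 1.2, limma adjusted p = 0.19) and Nfkbie by 0.56 (interval 0.23 to 0.90, limma adjusted p = 0.134). Nfkbiz responded less by -0.52 (interval -0.83 to -0.22, limma adjusted p = 0.123), and passed with array weights (-0.48, adjusted p = 0.0386). Bcl3 (-0.37, interval -0.96 to 0.22), Nfkbia (0.11, interval -0.25 to 0.47) and Nfkbib (0.05, interval -0.27 to 0.36) had intervals that include 0. So the higher LPS-treated levels of Nfkbid and Nfkbie passed the test, and a larger response did not.

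The order of the 4 groups within a gene grouped the family in another way than its classes. Nfkbid and Nfkbie shared 1 order, LPS-treated knockout highest, then LPS-treated wild type, with both untreated groups overlapping. Nfkbia and Nfkbib had overlapping LPS-treated groups, a gap of 1.37 and 1.23 log2 below them, and the untreated groups at the bottom. Those untreated groups overlapped for Nfkbib and did not for Nfkbia. Nfkbiz had 4 separate levels, from 11.73 log2 in LPS-treated wild type to 8.11 in untreated knockout. Its group means stood in the same order as those of Nfkbia and Nfkbib. In Bcl3, LPS-treated wild type alone stood apart, by 0.40 log2 above untreated wild type, and the other 3 groups overlapped with their neighbours.

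Over the 12 arrays, which share 4 groups, log2 levels of Nfkbid and Nfkbie correlated at r = 0.98, Nfkbiz and Nfkbia at 0.97, and Bcl3 with the other 5 genes at 0.09 to 0.54. After subtracting group means, r was 0.66 for Nfkbid with Nfkbie, 0.71 for Nfkbib with Nfkbie and 0.51 for Nfkbiz with Nfkbia. It went from 0.96 to -0.22 for Nfkbia with Nfkbib and from 0.94 to 0.08 for Nfkbiz with Nfkbib, and from 0.48 to 0.63 for Bcl3 with Nfkbia. These are descriptions of 12 arrays with shared treatment.

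By the same measure, the genes most like Nfkbiz over 12 arrays were Gadd45b (r = 0.989), Car13 (0.988), Ndel1 (0.983), Eea1 (0.982) and Lif (0.982). For Nfkbid they were Csrp2 (0.987), Gem (0.985) and Dusp8 (0.98), and for Nfkbie Mark2 (0.997), Mfsd14b (0.989) and Mtmr14 (0.989). Nfkbia was most like Wsb1 (0.995), Nlrp3 (0.994), the gene of an inflammasome sensor, and Rab11fip1 (0.993). Nfkbib was most like Malt1, Nfkb2 and Plagl2 (all 0.991). Bcl3 had the loosest matches, Usp3 (0.941), Acpp (0.935) and Micall1 (0.928). At r above 0.95 it had 0 genes, against 62 to 212 for the other 5.

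The proteins around the IκBs were viewed through 3 lists. Of the list of IκB kinases, their adaptors, IκB turnover genes and the Ras-like IκB partners, 15 of 16 were measured. In wild type 7 rose with LPS and 1 fell (all genes 9.53% and 18.5%), led by Ikbke (1.14), Ikbkb (0.75) and Tbk1 (0.73), all kinase genes. In the knockout 6 rose and 2 fell (all genes 21.9% and 23.8%), with Tbk1 (1.00), Tab1 (-0.66), an adaptor of the kinase TAK1, and Fbxw11 (0.56), a subunit of the ubiquitin ligase for IκB. List medians were 0.21 and 0.16.

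With LPS, 2 of these 15 were lower in the knockout and 0 higher (all genes 4.87% and 3.28%). Ikbkb, the gene of the kinase IKKβ that phosphorylates classical IκBs, was one (-0.44, SE 0.09, limma adjusted p = 0.0125). Leaving out wild-type LPS replicate 1 ended this call (-0.42, adjusted p = 0.0555). So did leaving out the LPS-treated array furthest from its group in each genotype (-0.43, adjusted p = 0.0767). The other was Tab2, an adaptor of TAK1 named here after its value was seen (-0.23, SE 0.06, limma adjusted p = 0.0427). Ikbke (-0.60, adjusted p = 0.0652) and Tbk1 (0.33, adjusted p = 0.169) were not called. Ikbke passed without untreated wild-type replicate 1 (adjusted p = 0.0407) or 3 (adjusted p = 0.0383).

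All 4 measured NF-κB subunit genes rose in both genotypes (all genes 9.53% in wild type and 21.9% in knockout), with Nfkb2 (1.65 in wild type, 1.44 in knockout) and Rel (1.1 and 1.08) foremost, then Relb in wild type (0.60) and Rela in knockout (0.74). With LPS, 0 of 4 were called between genotypes by limma (2 at an unadjusted p under 0.05, against 22% of all genes). Rel stood at -0.28, Rela at 0.22 and Nfkb2 at -0.22. Rela passed with array weights (0.25, adjusted p = 0.0484).

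Of 13 feedback genes, 10 rose and 0 fell in wild type, where 9.53% of all genes rose and 18.5% fell. In the knockout 12 rose and 1 fell, where 21.9% of all genes rose and 23.8% fell. Tnfaip3, which encodes the deubiquitinase A20, rose by 2.80 and 2.59 and Traf1 by 2.03 and 2.12. Malt1, the gene of a paracaspase, rose by 2.28 in the knockout. Zc3h12a, whose product cleaves Nfkbiz mRNA, rose by 2.14 (SE 0.13) in wild type and 1.80 (SE 0.13) in knockout. With LPS it differed between genotypes by -0.47 without a call (limma adjusted p = 0.0543). It passed after quantile normalization (-0.51), without dim genes (-0.47), with array weights (-0.37), and without knockout LPS replicate 1 (-0.55) or 3 (-0.58). Traf1 differed by -0.54 without a call (adjusted p = 0.20). Tnip3, an A20-binding partner, was the 1 of 13 feedback genes called lower in the knockout with LPS (-1.50, SE 0.23, limma adjusted p = 0.00291). None of the list was called higher, where 4.87% of all genes were called lower and 3.28% higher.

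Untreated, 0 of the 32 measured genes of these lists were called between genotypes by limma (1 at an unadjusted p under 0.05, against 8.68% of all genes). The largest differences were Traf1 (-0.63), Tnip3 (-0.49) and Tnfaip3 (0.18) among feedback genes, and Rel (-0.26), Relb (0.09) and Rela (0.07) among subunits. Kinases and turnover genes differed by at most 0.19 (Ikbke), with Nkiras1 at 0.16 and Tab1 at -0.09. For the interaction 0 of 32 were called by limma (5 at an unadjusted p under 0.05, against 13.1% of all genes). Ikbkb passed with array weights (-0.50, adjusted p = 0.0425). Tnip3 (-1.01), Ikbke (-0.80), Ikbkb (-0.45), Nkiras1 (-0.41), a gene of a Ras-like IκBβ partner, and Tnip2 (0.40) were furthest from 0. Zc3h12a stood at -0.35, Nfkb2 at -0.21, Rela at 0.15 and Rel at -0.02.

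**Figure D4:**
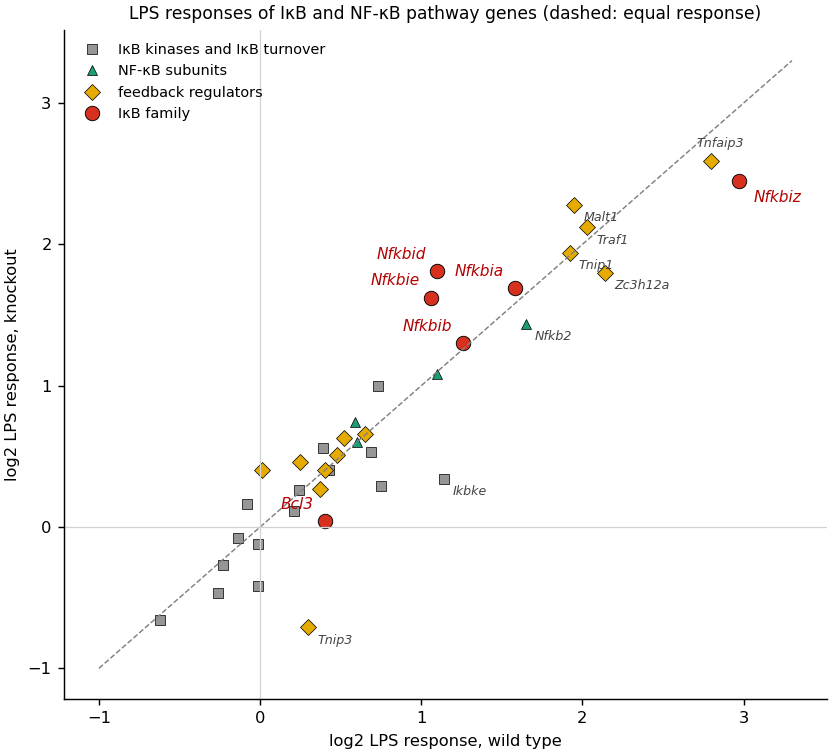
Log2 LPS response in knockout (y axis) against wild type (x axis) for the 6 IκB genes (red circles) and the 32 genes of the 3 pathway lists. The dashed line marks equal responses: Nfkbid (1.1 and 1.81) and Nfkbie (1.06 and 1.62) lay above it and Nfkbiz (2.97 and 2.45) below it, differences that did not pass the interaction test.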

How the data were processed

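The submitters' processing notes name RMA and Affymetrix Expression Console 1.1 for these 1-colour arrays, without settings. The authors deposited linear intensity values for 35556 probe sets. Their 75th percentiles were 350.3 to 380.1 on LPS-treated and 397 to 428.7 on untreated arrays, and counts of calls moved with the scaling. Here log2 was taken, without a pseudocount, of the deposited intensity of probe sets with 1 symbol in GEO's platform annotation, and the brightest probe set per gene was kept. Fits used limma 3.58.1 in R 4.3.3 (lmFit, eBayes, two-sided, 4 group means, 8 residual degrees of freedom), adjusted over 19938 genes. The number of arrays limits the precision.

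Named genes were the 6 members, the genes of highest r with each (5 for Nfkbiz, 3 for others, passing over predicted genes, small RNAs, and olfactory and vomeronasal receptor genes), Zc3h12a, and the 3 listed genes with the largest difference per list and comparison. Members and lists were chosen with earlier results of these data known. Chuk and Nfkb1 are not analysed here.

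For untreated and LPS-treated arrays with the same replicate number, deviations from group means correlated at 0.32, 0.57 and 0.46 in the knockout. They correlated at -0.07, 0.14 and 0.36 in wild type, and at -0.26 to 0.09 between genotypes. The genotypes overlapped, since 0.36 in wild type exceeded 0.32 in the knockout. Whether the replicate numbers in the titles mark paired arrays cannot be decided from so few correlations.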

Additional observations from a re-analysis of the deposited data

How the results depend on the processing

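Over the alternatives, 671 of 702 values of the 6 genes kept their direction and side of the threshold, 12 lost and 6 gained a call, and 13 changed sign, all in uncalled differences. The 5 genes raised by LPS kept their calls in both genotypes under all settings, and so did Nfkbiz, Nfkbid and Nfkbie with LPS. The planned check with other probe sets was not run, since each gene has 1, and the interaction cannot be limited to the arrays compared, since it uses all. Detection calls were not used here.

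Signs turned for Nfkbib with quantile normalization (-0.02, difference of responses) and on the 75th percentile (0.03, genotypes with LPS), for Bcl3 on the median (-0.01, knockout response), and for Rel on the 75th percentile (0.04, difference of responses). Without single arrays, Bcl3 ranged from -0.18 to 0.21 (knockout response), Nfkbie from -0.06 to 0.13 and Nfkbib from -0.17 to 0.02 (genotypes untreated), Nfkbib from -0.05 to 0.13 and Rel from -0.14 to 0.08 (difference of responses).

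Genes called in the wild-type response were 5594, against 10190 on the 75th percentile and 10113 with array weights, and in the knockout response 9105 against 14386 on the 75th percentile. Between genotypes with LPS there were 1623, against 3296 with array weights, 492 with only the arrays compared, 712 to 2158 without single arrays (712 without wild-type LPS replicate 3, 754 without replicate 1, 1076 without knockout LPS replicate 3), and 688 without both LPS arrays furthest from their groups, left out after seeing the data. Untreated there were 15, against 24 by quantile normalization, 25 on the 75th percentile, 46 with array weights, 2 with only the arrays compared, 6 to 23 without single arrays (6 without wild-type untreated replicate 3, 8 without LPS replicate 1 of either genotype, 9 without knockout untreated replicate 1, 23 without knockout LPS replicate 2), and 29 without both far arrays. The interaction gave 149, against 667 with array weights and 55 to 365 without single arrays (365 without wild-type LPS replicate 2, 86 without replicate 3, 60 without replicate 1, 63 to 68 without any untreated wild-type array, 55 and 91 without knockout untreated replicates 1 and 3). Of the 6 family genes, 0 instead of 1 were called untreated on the median, with only the arrays compared, with log2 of intensity plus 32, and in fits without single arrays (0 to 1), and 1 instead of 0 for the interaction with array weights. The cause was not tested.

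Of the calls in wild type, 34% were higher on the deposited scale, 44.5% by quantile normalization and 72.8% on the 75th percentile. The same share was 47.9% and 76.6% in the knockout, 40.2% and 52.6% between genotypes with LPS, and 40.3% and 55.6% for the interaction. Untreated it was 46.7% of 15 calls, 63.2% on the median, and fell to 16.7% and 20% without wild-type untreated replicates 3 and 2, and to 25% without knockout untreated replicate 3 or LPS replicate 1 of either genotype.

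With the replicate block, 30 genes and 0 of the 6 were called untreated (Nfkbiz -0.65, adjusted p = 0.0614). A replicate block within genotype, added after seeing the data, called 296 genes for the interaction and Bcl3 in the wild-type response (0.40, adjusted p = 0.0373). Neither block changed another call of the 6 genes.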
